A study of Mus musculus with 12 samples.

Results

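The genes described here code for enzymes that detoxify foreign and reactive compounds, for antioxidant enzymes, and for ATP-binding cassette proteins, in mouse kidney cortex. They were chosen by name alone: a probe was a member where its annotated symbol began with the stem of a glutathione transferase, glutamate-cysteine ligase, cytochrome P450, UDP-glucuronosyltransferase, sulfotransferase, aldehyde or alcohol dehydrogenase, aldo-keto reductase, epoxide hydrolase, NAD(P)H quinone dehydrogenase, peroxiredoxin, thioredoxin, glutathione peroxidase, superoxide dismutase, catalase or ATP-binding cassette gene. Of the 15600 probes on the array, 84 were members. Of these 80 carried 1 symbol, for 63 of the 6786 genes named on the array, and 4 carried several symbols and are not named. No probe with a UDP-glucuronosyltransferase, sulfotransferase or quinone dehydrogenase name was among them. Some names match without such a role: Txnl4a belongs to the spliceosome, Abce1 and the Abcf genes act on ribosomes and carry nothing across a membrane, and Txnip inhibits thioredoxin.

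The study set 3 cortex samples of mice labelled menopausal, with the treatment VCD, against 3 cortex samples of mice labelled control. VCD is the usual short form of vinylcyclohexene diepoxide, an agent that destroys the small follicles of the rodent ovary, so that ovarian failure follows while the ovary stays in place. Total RNA was amplified, labelled with Alexa Fluor 546 or Alexa Fluor 647 and hybridised in pairs on 12 arrays of spotted cDNA probes. Each sample was on 4 arrays, 2 with each dye, and 6 arrays held a menopausal and a control sample together. The sources used here do not give the strain, sex, age or dose, nor whether a sample was 1 mouse or a pool. A p-value therefore covers the spread between these 6 samples alone, which may be technical.

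Detoxification runs in steps. Cytochromes P450 and other enzymes of the first step add or expose a reactive group, epoxide hydrolases and dehydrogenases act on the products, transferases couple them to glutathione or a sugar, and membrane pumps of the ATP-binding cassette family move the conjugates out. Reduced glutathione is made by glutamate-cysteine ligase and a second ligase, and is also the electron source of the glutathione peroxidases. Peroxiredoxins, which draw on thioredoxin, and catalase remove hydrogen peroxide, and superoxide dismutases make it from superoxide. The proximal tubule of the kidney cortex is rich in these enzymes. The transcription factor NRF2 binds the antioxidant response element with a small MAF protein and drives many of the genes, and the aryl hydrocarbon receptor binds the xenobiotic response element with ARNT.

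A probe was kept where its signal lay more than 2 SDs of the local background above that background in 6 or more of a group's 12 channel measurements. This kept 65 of the 84 member probes, or 77.4%, for 49 genes, against 7777 of 15600 probes, or 49.9%, over the whole array. Between 16.6% and 77.4% of the probes of a channel were above background, and the scanner software marked 24 to 418 spots of an array as abnormal. The number of arrays limits the precision. No member probe was saturated. Values are log2 and stand for 1 cortex sample each, set against the average of all 6, so they rank samples for a probe and never probes against each other. The median technical standard error of a sample value was 0.089 over the member probes and 0.084 over all kept probes. Gene names depend on a probe layout that was read from the data, and the groups on how the scanner tables are labelled.

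The members not kept were the probes of Abcb8, Abcf3, Akr1cl, Aldh1a1, Aldh3a2, Aldh3b1, Cyp1b1, Cyp39a1, Gstcd, Gstm6, Txndc16 and Txndc2, all probes of Abcf1 and Cyp11a1, 1 of the probes of Abcb10 and of Abcc1, and 1 probe with several symbols. Cyp11a1, which starts steroid synthesis, was above background in 1 of 12 menopausal and 1 of 12 control measurements with probe 8264, and in 0 and 2 with probe 10619. Aldh1a1, a retinal dehydrogenase, was above it in 3 menopausal and 2 control measurements. A probe below background on this array has no value here, which does not show that the gene was off. Another 8 probes were kept through 1 group only. They were the probes of Txnl4a, Cyp17a1, Akr1b10, Aldh1b1, Gstm4 and Gstm7, which reached 6 measurements in menopausal samples alone, and those of Cyp7b1 and Aldh16a1, which reached it in control samples alone.

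The group comparison asked whether the cortex of menopausal mice holds more or less of these transcripts than that of control mice. The clearest members were Txndc17, a small relative of thioredoxin that reduces disulfides, and Abcd3, a pump of the peroxisome membrane that brings in fatty acids and bile acid precursors. For Abcd3 and for probe 3689 of Txndc17 every menopausal sample lay above every control sample, and the ratio was above 0 on all 6 arrays that held both groups. The same held for Gsta4, a glutathione transferase for products of lipid peroxidation, while a further probe of Txndc17 was above 0 on 4 of these arrays. The sample values were fitted from all 12 arrays, these 6 included, so the array counts are not separate support. In bulk cortex, fewer cells of a type and less RNA per cell cannot be told apart. None of the 65 member probes passed the test after adjustment, nor did any of the 7777 (0% called), and the smallest adjusted p was 0.920854 (limma with an intensity trend, 3 against 3 samples, Benjamini-Hochberg).

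At an unadjusted p under 0.05 there were 2 member probes, those of Abcd3 and Akr1c14, and 387 probes in all, which is 4.98%. The groups did not overlap for 10 member probes, or 15.4% of 65, beside 12.1% of all kept probes. Of these 10, menopausal samples were higher for 9, or 13.8%, beside 6.18% of all, and lower for 1, or 1.54%, beside 5.9% of all. This split was not stable: without control sample 2 the groups lay apart for 15 higher and 11 lower members, or 40%, beside 25.7% of all, and with array weights for 4 higher and 4 lower, or 12.3%, beside 12.3%. Ratios were above 0 on all 6 arrays across groups for 3 member probes, beside 2.3% of all kept probes, and below 0 for 2, beside 2.02%. The difference was above 0 for 38 member probes and below 0 for 27, so 58.5% were above 0, beside 50.4% of all. These counts include probes kept through 1 group only. The median difference was 0.023 over the members and 0.0011 over all kept probes. That of the members was 0.069 with median centring, 0.057 with plain subtraction and 0.043 with array weights, and 0.010 to 0.051 with a sample or array left out. In the main setting the median size of a difference was 0.084 over the members and 0.068 over all. The spread of differences within every family was wider than the distance of its median from 0.

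**Figure D1:**
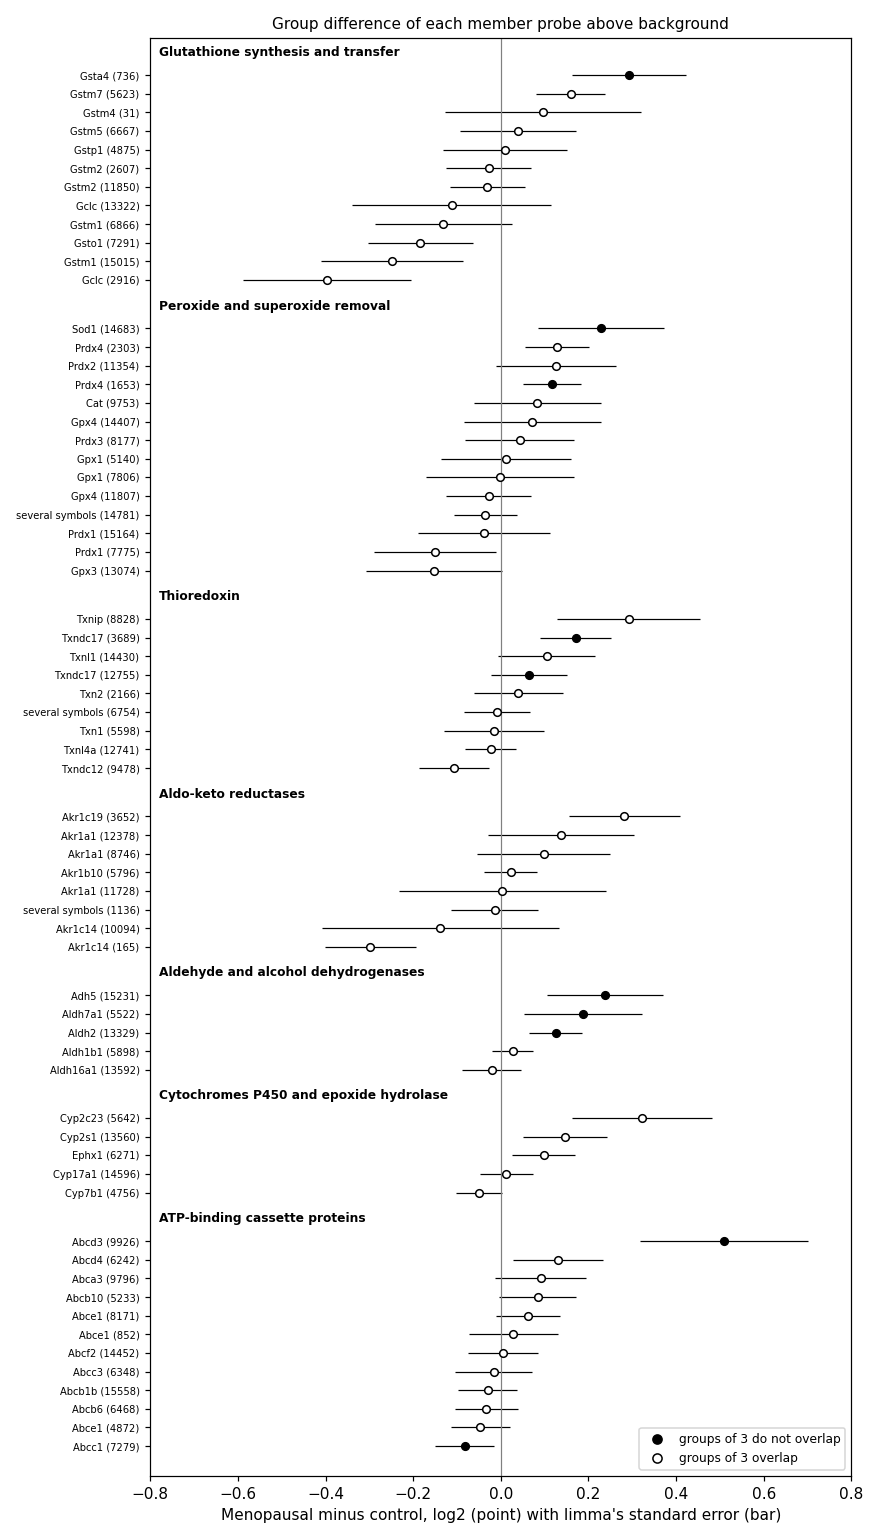
Difference of each of the 65 kept member probes, menopausal minus control in log2, with limma's standard error as a bar (n = 3 samples per group), ordered within 7 families; the number beside a gene is its probe. Filled points mark the 10 probes whose groups do not overlap, and the differences run between -0.40 for a Gclc probe and 0.51 for Abcd3.

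Probe 3689 of Txndc17 had values of 0.13, 0.03 and 0.10 in menopausal samples 1, 2 and 3, against -0.06, -0.09 and -0.10 in control samples 1, 2 and 3. The groups are narrow and lie apart, with a difference of 0.17 ± 0.08 (SE, n = 3 per group, adjusted p = 0.920854 with limma). On the arrays across groups the ratios of menopausal over control ran between 0.07 and 0.31. These groups lay apart under all 11 other settings of normalization, background, filter and arrays, the only named probe of which this held. Settings of the filter alone choose probes and leave the values of a kept probe as they were. They could not have parted or joined groups, here or in the tallies below. Under all 11 settings the difference lay between 0.08 and 0.37, and between 0.12 and 0.21 with a sample (and its 4 arrays) or an array left out. A further probe of the gene, 12755, had 0.03, 0.02 and 0.04 in menopausal samples, against -0.13, 0.0050 and 0.02 in control samples. Its groups touch almost without a gap, at a difference of 0.06 ± 0.09. They lay apart under 1 of 10 other settings, that without the filter, which leaves the values of this probe unchanged. Its ratio was above 0 on 4 of the 6 arrays across groups and below 0 on both that held control sample 2.

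Abcd3 had values of 0.01, 0.06 and 0.70 in menopausal samples, against -0.29, -0.22 and -0.25 in control samples. The control samples are close together and menopausal sample 3 stands far above all the others. The difference was 0.51 ± 0.19 (SE, n = 3 per group, adjusted p = 0.920854 with limma), the largest among the member probes, but 0.16 without menopausal sample 3. The ratios on the 6 arrays across groups ran between 0.07 and 1.46, and the lowest came from the array of menopausal sample 1 with control sample 2. The highest came from that of control sample 2 with menopausal sample 3, where 418 spots were marked abnormal. The groups lay apart under 9 of 11 other settings, the exceptions being median centring and scaling between arrays, and the difference ran between 0.34 and 0.66 under them.

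Sod1, the copper and zinc superoxide dismutase of the cytosol, had 0.03, 0.08 and 0.23 in menopausal samples, against -0.27, -0.01 and -0.06 in control samples. Menopausal sample 3 was highest and control sample 1 lowest, and the gap between the groups was small. The difference was 0.23 ± 0.14, and 0.11 without menopausal sample 3. The ratio was above 0 on 5 of the 6 arrays across groups. The groups lay apart under 5 of 11 other settings, with differences between 0.08 and 0.31.

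The promoters of these 3 genes are shown as examples of members whose groups lay apart in the main setting. Each runs 5′ to 3′ over 250 bases before and 50 after the gene start, as given by RefSeq for GRCm38.p6. Both strands were searched for TGACNNNGC, the core of the antioxidant response element, and for GCGTG, the core of the xenobiotic response element. Capitals mark the matches, which may overlap. For Abcd3, with 2 starts listed, the outer start is shown.
Abcd3, chr3:121815253-121815552, minus strand: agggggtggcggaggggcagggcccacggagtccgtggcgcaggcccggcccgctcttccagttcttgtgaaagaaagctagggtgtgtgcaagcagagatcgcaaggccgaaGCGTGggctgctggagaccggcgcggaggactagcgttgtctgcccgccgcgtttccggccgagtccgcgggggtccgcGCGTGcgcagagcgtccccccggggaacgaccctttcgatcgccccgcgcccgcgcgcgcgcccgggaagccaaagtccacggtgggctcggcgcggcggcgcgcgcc
Txndc17, chr11:72207304-72207603, plus strand: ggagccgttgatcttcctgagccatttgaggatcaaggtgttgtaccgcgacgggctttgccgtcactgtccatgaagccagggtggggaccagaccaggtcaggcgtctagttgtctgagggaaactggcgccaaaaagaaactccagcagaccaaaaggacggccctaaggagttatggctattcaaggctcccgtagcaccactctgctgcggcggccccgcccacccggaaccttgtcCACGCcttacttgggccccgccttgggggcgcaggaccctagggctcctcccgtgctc
Sod1, chr16:90220512-90220811, plus strand: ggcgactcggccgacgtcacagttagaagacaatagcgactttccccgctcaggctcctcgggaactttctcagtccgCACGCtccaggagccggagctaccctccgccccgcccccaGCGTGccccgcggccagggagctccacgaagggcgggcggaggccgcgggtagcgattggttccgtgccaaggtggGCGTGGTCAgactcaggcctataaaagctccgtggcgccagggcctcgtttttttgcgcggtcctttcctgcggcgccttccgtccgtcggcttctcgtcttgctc
The Abcd3 window holds GCGTG 2 times and no TGACNNNGC, and the window of its other listed start holds neither. Txndc17 holds GCGTG 1 time. Sod1 holds GCGTG 3 times and TGACNNNGC 1 time, with the last of the GCGTG matches inside that TGACNNNGC match on the opposite strand. Over all 32851 RefSeq promoters of this length, 12.4% hold TGACNNNGC and 32.4% hold GCGTG. Of the 63 member genes 49 matched the table, with 64 promoters, of which 10.9% hold TGACNNNGC and 42.2% hold GCGTG. The 7 member genes with a TGACNNNGC match were Sod1, Prdx1, Gstm5, Gstm7, Akr1c19, Akr1cl and Txndc2. A match is a description of these letters and not a site.

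**Figure D2:**
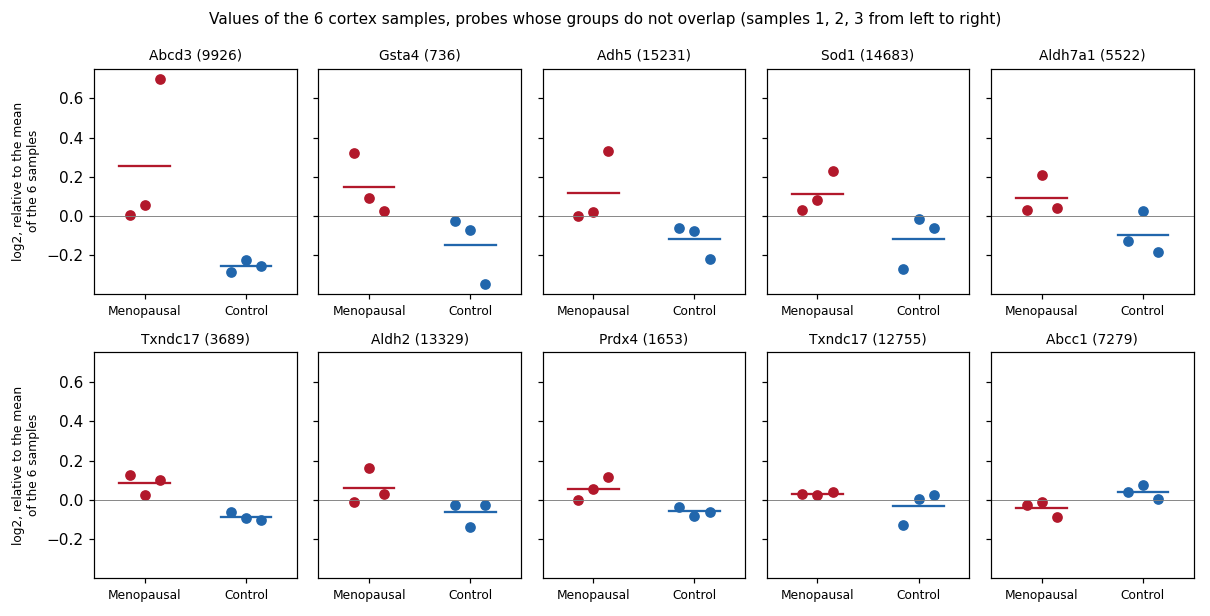
Values of the 3 menopausal (red, left) and 3 control (blue, right) cortex samples for the 10 member probes whose groups do not overlap, in log2 set against the average of all 6, with horizontal lines at the group means. Menopausal sample 3 is the highest point for Abcd3 (0.70), Adh5 (0.33), Sod1 (0.23) and Prdx4 (0.12), and Abcc1 is the only panel with the menopausal samples lower.

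Enzymes that make and use glutathione did not move one way. Of 12 kept probes 5 had a difference above 0 and 7 below 0, none passed the test, and the median was -0.03. Over all settings and left-out samples that median lay between -0.08 and 0.03. The probes of Gstm4 and Gstm7, both above 0, were kept through menopausal samples alone. Gsta4 had 0.32, 0.09 and 0.03 in menopausal samples, against -0.02, -0.07 and -0.34 in control samples, a difference of 0.29 ± 0.13. Menopausal sample 1 and control sample 3 lie at the ends. Its ratio was above 0 on all 6 arrays across groups, between 0.04 and 0.62. The groups lay apart under 5 of 11 other settings, with differences between 0.17 and 0.29, and the difference was 0.19 without control sample 3.

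Gclc, the catalytic subunit of the ligase that sets the rate of glutathione synthesis, had the most negative difference of the members. Probe 2916 had -0.29, -0.28 and -0.03 in menopausal samples, against 0.13, -0.18 and 0.65 in control samples, and control sample 3 was far above the rest. The groups overlap through control sample 2. The difference was -0.40 ± 0.19 and lay between -0.59 and -0.30 with samples or arrays left out, and between -0.63 and -0.17 under other settings. This probe was measured on 11 of the 12 arrays, since its spots were marked abnormal on the array of control sample 2 with menopausal sample 3. It had a value under 26 alternatives of any kind, against 32 for the gene's further probe, 13322. Its ranges therefore do not cover every left-out sample or array. Probe 13322 had -0.14, -0.10 and 0.07 in menopausal samples, against 0.25, -0.49 and 0.41 in control samples, a difference of -0.11 ± 0.23 that ran between -0.26 and 0.07 under other settings. It shows the same order of the control samples, with the lowest value of all in control sample 2.

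The mu class glutathione transferases, whose genes Gstm1 to Gstm7 lie side by side on chromosome 3, are alike in sequence, so a cDNA probe may bind more than 1 of their transcripts and their values are uncertain. Probe 15015 of Gstm1 had -0.08, 0.06 and -0.35 in menopausal samples, against 0.15, -0.04 and 0.26 in control samples, a difference of -0.25 ± 0.16. Probe 6866 of Gstm1 differed by -0.13 ± 0.16, and its ratio was below 0 on all 6 arrays across groups. The groups of both probes overlap through control sample 2. Gstm2 differed by -0.03 with each of its probes, Gstm5 by 0.04 and Gstm7 by 0.16. Outside the mu class, Gsto1, an omega class enzyme that reduces dehydroascorbate, differed by -0.18 and Gstp1, of the pi class, by 0.01.

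Enzymes that remove peroxide and superoxide were all above background, with 14 of 14 probes kept. The difference was above 0 for 8 and below 0 for 6, none passed the test, and the median was 0.03, between -0.04 and 0.14 over all settings and left-out samples. Prdx4, the peroxiredoxin of the endoplasmic reticulum, had -0.00085, 0.06 and 0.12 with probe 1653 in menopausal samples, against -0.04, -0.08 and -0.06 in control samples. Every menopausal sample was above every control sample, at a difference of 0.12 ± 0.07, and at 0.03 without menopausal sample 3. The groups lay apart under 5 of 10 other settings, with differences between 0.05 and 0.15. On the 6 arrays across groups the ratio was above 0 on 4. Probe 2303 of Prdx4 had -0.02, 0.03 and 0.18 in menopausal samples, against -0.0069, -0.10 and -0.08 in control samples. Its groups overlap by the lowest menopausal and the highest control sample, and its difference was 0.13 ± 0.07, between 0.02 and 0.30 under other settings.

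The other peroxiredoxins lay on either side of 0. Prdx1 of the cytosol differed by -0.15 with probe 7775, whose ratio was below 0 on all 6 arrays across groups, and by -0.04 with probe 15164. The groups of probe 7775 overlap, and its ratios ran between -0.26 and -0.00051. Prdx2, abundant in red blood cells, differed by 0.13 and Prdx3 of the mitochondria by 0.04. Cat, the catalase of the peroxisome, differed by 0.08, and among the menopausal samples it spanned 0.58, against 0.10 among the control samples. The glutathione peroxidase Gpx1 differed by 0.01 and -0.0021 with its 2 probes, and Gpx4, which reduces lipid peroxides in membranes, by -0.03 and 0.07. Gpx3, which the kidney secretes into plasma, differed by -0.15, the lowest of the family.

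Thioredoxin family probes numbered 9 kept of 11, with a difference above 0 for 5 and below 0 for 4, and none passed the test. Their median was 0.04, between -0.02 and 0.13 over all settings and left-out samples. Beside Txndc17, the largest difference was that of Txnip, at 0.29 ± 0.16 (n = 3 per group). Txnip had -0.07, -0.06 and 0.56 in menopausal samples, against -0.10, -0.32 and -0.02 in control samples, so that menopausal sample 3 stood alone above the rest and the groups overlap. Its ratio was above 0 on 2 of the 6 arrays across groups and below 0 on 4. The largest, 1.72, was on the array of control sample 2 with menopausal sample 3, where 418 spots were marked abnormal. The cytosolic thioredoxin Txn1 differed by -0.02 and the mitochondrial Txn2 by 0.04. Txnl1, a thioredoxin bound to the proteasome, differed by 0.10 and Txndc12, of the endoplasmic reticulum, by -0.11.

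Among the aldo-keto reductases, which reduce aldehydes, ketones and steroids, 8 of 9 probes were kept, 5 with a difference above 0 and 3 below 0. None passed the test, and the median was 0.01, between -0.01 and 0.13 over all settings and left-out samples. Akr1c14, a hydroxysteroid dehydrogenase, had the lowest difference of the family and Akr1c19 the highest, though the genes belong to the same cluster on chromosome 13, where Akr1c18 and Akr1c13 lie between them. Both are near copies of other members of the cluster, so their probes may also bind those transcripts. Probe 165 of Akr1c14 had -0.25, -0.27 and 0.07 in menopausal samples, against 0.10, 0.05 and 0.30 in control samples. Menopausal samples 1 and 2 lie below every control sample, and menopausal sample 3 above control sample 2. The difference was -0.30 ± 0.10 (n = 3 per group, adjusted p = 0.920854 with limma), -0.11 without control sample 3 and -0.53 without control sample 2. It was -0.037 without background subtraction and -0.57 with plain subtraction. The ratio was below 0 on 5 of the 6 arrays across groups and 0.39 on that of menopausal sample 3 with control sample 2.

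Probe 10094 of Akr1c14 had -0.40, -0.22 and 0.42 in menopausal samples, against 0.21, -0.48 and 0.48 in control samples, a difference of -0.14 ± 0.27, between -0.34 and -0.04 under other settings. It too was above 0 in menopausal sample 3, and its control sample 2 was the lowest of all. Akr1c19 had -0.02, 0.21 and 0.23 in menopausal samples, against 0.02, -0.33 and -0.11 in control samples, a difference of 0.28 ± 0.13. Menopausal samples 2 and 3 lie above every control sample, and menopausal sample 1 just below control sample 1. The promoters of both genes are shown because these neighbours had differences of opposite sign.
Akr1c14, chr13:4059341-4059640, plus strand: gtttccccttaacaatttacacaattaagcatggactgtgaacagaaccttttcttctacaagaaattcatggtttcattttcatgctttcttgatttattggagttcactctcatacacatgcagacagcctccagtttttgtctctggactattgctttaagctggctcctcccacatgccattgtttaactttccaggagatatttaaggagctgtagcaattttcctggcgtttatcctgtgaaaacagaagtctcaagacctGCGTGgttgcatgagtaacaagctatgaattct
Akr1c19, chr13:4233490-4233789, plus strand: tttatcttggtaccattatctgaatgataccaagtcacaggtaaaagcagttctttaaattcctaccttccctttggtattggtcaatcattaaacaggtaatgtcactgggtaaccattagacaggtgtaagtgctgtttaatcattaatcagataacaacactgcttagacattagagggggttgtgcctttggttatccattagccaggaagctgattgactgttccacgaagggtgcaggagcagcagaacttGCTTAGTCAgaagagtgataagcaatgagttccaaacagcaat
The Akr1c14 window holds GCGTG 1 time, after the gene start, and no TGACNNNGC. The Akr1c19 window holds TGACNNNGC 1 time, also near the start and on the opposite strand, and no GCGTG.

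Akr1a1, the aldehyde reductase that also serves vitamin C synthesis in mice, had 3 kept probes, with differences of 0.10, 0.0035 and 0.14. Probe 11728 had -0.27, 0.35 and -0.08 in menopausal samples, against -0.38, 0.40 and -0.03 in control samples. Sample 2 was high and sample 1 low in each group, so that the groups covered the same ground in the main setting. Its difference was 0.22 with global loess and 0.36 with median centring. Median centring also gave 0.45 for probe 8746 and 0.38 for probe 12378, which were 0.10 and 0.14 in the main setting. Akr1b10 differed by 0.02 and was kept through menopausal samples alone.

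Aldehyde and alcohol dehydrogenases had a median of 0.12 over 5 kept probes of 8. This was the highest of the 7 families in the main setting and under 21 of 30 alternatives, but not with median centring, scaling between arrays, plain subtraction or probes above background in all measurements, among others. The alternatives share most of their data, and those of the slide range left the median at its main value. The difference was above 0 for 4 and below 0 for 1, and none passed the test. In the main setting the family median was the value of 1 probe, that of Aldh2. This probe was above background in 6 of 12 menopausal and 6 of 12 control measurements, the limit of the filter. Aldh1b1, above 0, was kept through menopausal samples alone and Aldh16a1, below 0, through control samples alone. Such a filter can favour the direction of the probe. The family median was above 0 under every setting and with every sample or array left out, between 0.03 and 0.21. Adh5, which oxidises the glutathione adduct of formaldehyde and reduces nitrosoglutathione, had -0.00091, 0.02 and 0.33 in menopausal samples, against -0.06, -0.08 and -0.22 in control samples. The groups lie apart by a small gap, with menopausal sample 3 highest. Its ratio was above 0 on 4 of the 6 arrays across groups and ran between -0.08 and 0.98. The ratio of 0.98 was on the array of control sample 2 with menopausal sample 3, where 418 spots were marked abnormal. The difference was 0.24 ± 0.13, and between 0.09 and 0.37 under 11 other settings, of which 8 kept the groups apart. It was 0.00016 in a fit without menopausal sample 3, which also drops the 4 arrays of that sample and so changes the values of the others. Aldh7a1, a dehydrogenase of lysine breakdown, had 0.03, 0.21 and 0.04 in menopausal samples, against -0.13, 0.03 and -0.18 in control samples. Its groups lie apart by less than 0.01, at a difference of 0.19 ± 0.13. They lay apart under 4 of 11 other settings, with differences between 0.10 and 0.32. On the 6 arrays across groups the ratio was above 0 on 4.

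Aldh2, the mitochondrial enzyme that clears acetaldehyde, had -0.0083, 0.16 and 0.03 in menopausal samples, against -0.02, -0.14 and -0.03 in control samples. The groups lie apart by a small gap, with menopausal sample 2 highest and control sample 2 lowest. The difference was 0.12 ± 0.06, and 0.06 without menopausal sample 2. The probe was near background, above it in only 6 of 12 measurements of each group. Its groups lay apart under 6 of 9 other settings, with differences between 0.04 and 0.19. With plain subtraction it had no value, and it was not among the probes above background in all measurements. On the 6 arrays across groups the ratio was above 0 on 4. Aldh1b1 differed by 0.03 and Aldh16a1 by -0.02.

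Cytochromes P450 and microsomal epoxide hydrolase had 5 kept probes of 10, with a difference above 0 for 4 and below 0 for 1. None passed the test, and the median was 0.10, between 0.01 and 0.13 over all settings and left-out samples. Cyp17a1, above 0, was kept through menopausal samples alone and Cyp7b1, below 0, through control samples alone, which can favour these directions. Cyp2c23, a P450 of rodent kidney that makes epoxides of arachidonic acid, had -0.14, 0.50 and 0.13 in menopausal samples, against -0.07, -0.34 and -0.08 in control samples. Menopausal sample 2 was far above and control sample 2 far below the others, and menopausal sample 1 lay among the control samples. The difference was 0.32 ± 0.16, and 0.16 without menopausal sample 2, and it lay between 0.12 and 0.35 under other settings. Ephx1, the epoxide hydrolase that opens epoxides of foreign compounds, differed by 0.10 ± 0.07 with overlapping groups. Cyp2s1 differed by 0.15, the steroid hydroxylase Cyp17a1 by 0.01 and the oxysterol hydroxylase Cyp7b1 by -0.05.

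ATP-binding cassette proteins had 12 kept probes of 18, with a difference above 0 for 7 and below 0 for 5, and a median of 0.02. None passed the test. That median lay between -0.01 and 0.30 over all settings and left-out samples, and 0.30 came from 2 probes, those above background in all measurements. Apart from Abcd3 the differences were small. Abcc1, a pump that exports glutathione conjugates, was the only member whose menopausal samples all lay below the control samples. It had -0.03, -0.01 and -0.08 in menopausal samples, against 0.04, 0.08 and 0.0064 in control samples, a difference of -0.08 ± 0.07. The sign turned to 0.04 with global loess and 0.05 with median centring, and to 0.0091 without menopausal sample 3. The groups lay apart under 4 of 10 other settings. On the 6 arrays across groups the ratio was below 0 on 4.

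The drug efflux pump Abcb1b differed by -0.03 and Abcc3, which exports conjugates to the blood side of cells, by -0.02. Abcd4, which helps release cobalamin from lysosomes, differed by 0.13. Of the mitochondrial transporters, Abcb10 differed by 0.08 and Abcb6 by -0.03, and Abca3, a lipid transporter best known from lung, by 0.09. Abce1, which recycles ribosomes, differed by 0.03, -0.05 and 0.06 with its 3 probes, and Abcf2 by 0.0050.

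For 11 member genes more than 1 probe was kept, giving 15 pairs of probes. The median correlation of a pair over the 6 samples was 0.60 for the members, and 0.52 over 1656 pairs of 869 genes on the whole array. The differences of a pair had the same sign in 11 of 15 pairs, or 73.3%, beside 64.6% over all pairs. Probes of a pair share arrays and samples, and the 6 values sum to 0, so these correlations are a description. The probes of Prdx4 went together most closely, at r = 0.95, and those of Gclc at 0.80, Gstm1 at 0.78, Gpx1 at 0.78 and Akr1c14 at 0.71. The probes of Gpx4 ran in opposite order, at r = -0.83: probe 14407 was highest in menopausal sample 1, at 0.27, and probe 11807 lowest there, at -0.20. Those of Prdx1 also disagreed, at r = -0.35, and their values for the gene are uncertain.

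**Figure D3:**
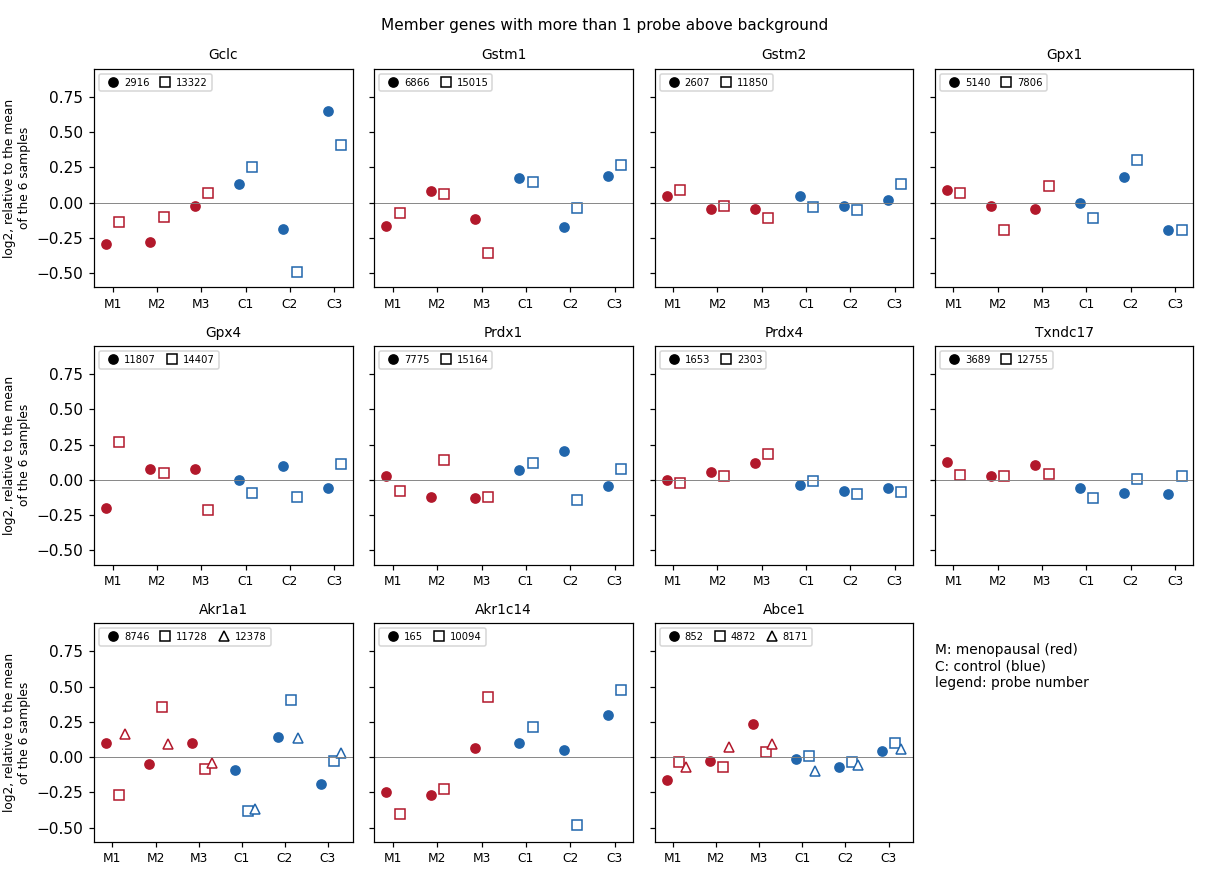
Values of menopausal samples M1 to M3 (red) and control samples C1 to C3 (blue), in log2 set against the average of all 6, for the 11 member genes with more than 1 kept probe; each marker shape is 1 probe, numbered in the panel. Both Gclc probes are highest in control sample 3 (0.65 and 0.41), while the probes of Gpx4 go opposite ways in menopausal samples 1 and 3.

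Some member probes spread widely among samples of the same group. Among the menopausal samples 1 member probe passed limma's moderated F test, that of Gstm4, beside 0.373% of all kept probes (29 of 7777). At an unadjusted p under 0.05 there were 7, beside 13% of all. Gstm4 had -0.0089, 0.61 and -0.46 in menopausal samples, against 0.03, -0.15 and -0.03 in control samples. It spanned 1.07 among the menopausal samples (adjusted p = 0.046457), with menopausal sample 2 far above and menopausal sample 3 far below the others. The probe was above background in 10 of 12 menopausal and 5 of 12 control measurements and was kept through the menopausal group alone, so its control range of 0.18 comes mostly from measurements below that limit and is not compared. This F test takes its error from repeat arrays of an RNA, which is technical. The call held under 3 of 28 other settings or left-out samples and arrays, and the adjusted p ran between 0.017 and 0.95.

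Among the control samples no member passed the same F test, beside 1.07% of all kept probes (83 of 7777). At an unadjusted p under 0.05 there were 6, beside 13.6% of all. The widest ranges were those of Akr1c14 probe 10094, at 0.96, and of the Gclc probes, at 0.90 for 13322 and 0.83 for 2916. Akr1c14 probe 10094 was also wide among the menopausal samples, at 0.83. The adjusted p was 0.053 for Gclc probe 13322 and 0.062 for probe 2916. Control sample 2 was lowest and control sample 3 highest for these 3 probes. Akr1c14 probe 10094 passed under 5 of 29 alternatives, Gclc probe 13322 under 3 of 29 and probe 2916 under 2 of 23. Akr1a1 probe 11728 spanned 0.78 among the control samples with control sample 1 lowest and control sample 2 highest. The median range over members was 0.20 among menopausal and 0.18 among control samples, and the same medians held over all kept probes, at 0.20 and 0.18.

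**Figure D4:**
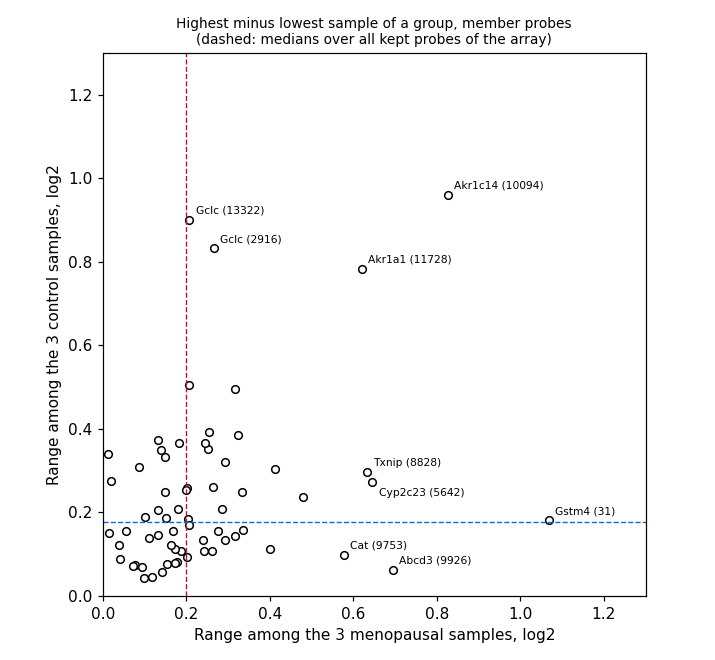
Range (highest minus lowest sample value, log2) of each of the 65 kept member probes among the 3 menopausal samples (horizontal axis) and among the 3 control samples (vertical axis), with dashed lines at the medians over all 7777 kept probes (0.20 and 0.18). Probes of Gclc and probe 10094 of Akr1c14 lie at the top, those of Gstm4 and Abcd3 at the right. Probe 10094 of Akr1c14 lies to the right as well, at 0.83.

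Other genes of the same pathways gave no called difference either. Each gene is given by its brightest kept probe. Of 30 genes listed for the NRF2 pathway outside these family names, 15 were on the array and 13 kept, 6 with a difference above 0 and 7 below 0, and 0 of 13 passed the test. Their median was -0.03. Mafg, a small MAF partner of NRF2, had menopausal samples all below the control samples, at -0.20 ± 0.08. Nfe2l2, the gene of NRF2, was kept and differed by less than its standard error. Of 5 kept genes for nuclear receptors and their partners, 3 were above and 2 below 0. Of 12 kept genes for other enzymes of the first and second steps, 7 were above and 5 below 0, with a median of 0.05. Ces1d, a carboxylesterase of the endoplasmic reticulum, had menopausal samples all above the control samples, at 0.51 ± 0.19, and Papss1, which makes the sulfate donor, differed by -0.32 ± 0.16. Of 4 kept drug and organic ion carriers 2 were above and 2 below 0, and the carnitine carrier Slc22a5 differed by 0.24 ± 0.15. None of these 34 kept genes passed the test after adjustment.

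The cortex label was checked against marker genes. The proximal tubule markers Lrp2, Miox and Gatm, 3 of 13 listed, were on the array and above background, with median values of -0.13, 0.18 and -0.07 in menopausal samples, against 0.12, -0.12 and 0.04 in control samples. The groups overlap. Of 4 red blood cell markers 2 were kept, and their median was 0.41, 0.03 and -0.38 in menopausal samples, against -0.16, -0.41 and 0.51 in control samples. Hbb-b1, a beta globin, had -0.17, -0.77 and 0.73 in the control samples, the order of the Gclc probes and of Akr1c14 probe 10094, while Alas2, of heme synthesis, had -0.15, -0.06 and 0.29, with control sample 1 lowest. In the menopausal samples Hbb-b1 had 0.72, 0.06 and -0.56, which is not the order of those probes. The part of red blood cells in these ranges was not tested. Of 8 adrenal cortex markers 5 were on the array and 2 kept. Hsd3b1 was above background in 24 of 24 measurements and Star in 18 of 24. Their medians lay between -0.06 and 0.08 in menopausal and between -0.07 and 0.02 in control samples. Cyp11a1, Nr5a1 and Mc2r were not kept. Whether adrenal tissue was present was not tested. Of 5 liver markers 3 were on the array and 2 kept: Alb differed by 0.23 ± 0.07, with groups apart, and Ttr by 0.02 ± 0.17. The liver also makes many member enzymes, and whether its markers bear on them was not tested. The lists for thick ascending limb and distal tubule, podocytes, endothelium, stroma and immune cells had 1 or 2 kept genes each, and 0 of them passed the test. The collecting duct list had no kept gene and the fat list none on the array.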

How the data were processed

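The authors deposited a scanner table per array with raw spot and local background intensity in each channel, per the file headers. The deposited value table holds log2 ratios per spot, whose normalization by the authors the sources used here do not describe. Of its 12 columns 0 correlated best with the array they are labelled for, so it was not used. Each of the 6 cortex samples kept 1 scan code on all its arrays under the labels of the scanner tables, which were used. The probe layout was chosen from the data: brightness of probes of 1 gene correlated at r = 0.5789 in the mirrored layout and 0.03124 in file order. The annotation named 9445 probes, 9191 with 1 symbol and 254 with several. All 80 member symbols were updated or kept by gene identifier in the GRCm38.p6 table.

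In limma 3.58.1 (R 4.3.3), spot medians were corrected by normexp (offset 50) and log2 ratios normalized by print-tip loess. Global loess left a difference between groups that changed with slide position: blocks held 0.3182 of its variance, against 0.004982. Spots marked abnormal were given no weight, the 2 copies of each probe were averaged, and no scaling between arrays was applied. A fit with a dye term gave 6 sample values, compared 3 against 3 by limma's moderated test with Benjamini-Hochberg adjustment at 0.05 over 7777 probes. Differences within a group used the moderated F over 12 arrays. The statistics were tested on simulated data.

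Named probes were those past a test, up to 12 per direction with groups apart, the 4 widest ranges per group where fewer than 4 passed the F test, every kept probe of genes so named, the lowest and highest of each family, and up to 3 genes per list. Other members have their difference alone, and values of Gstm1, Akr1c19, Txnip, Ephx1, Cat and the Prdx1 and Gpx4 probes were chosen after they were seen. The members and lists were chosen with earlier results of these data known. Alternatives changed normalization, background, filter, weights, slide range, replicate block, and left out each sample or array.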

Additional observations from a re-analysis of the deposited data

How the results depend on the processing

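No probe passed the group test under any setting with samples as replicates, and 387 probes had an unadjusted p under 0.05 (limma). That number was 598 with global loess, 201 with scaling between arrays, 235 without background subtraction, 231 with plain subtraction, 1039 without the filter, 47 with probes above background in all measurements, 231 with arrays of the lower slide range, and 216 to 727 with a sample or array left out. With arrays as replicates 5 probes passed, none of them a member, and 597 had an unadjusted p under 0.05. With the replicate block 0 passed and 270 had an unadjusted p under 0.05. Deviations of samples that share a number correlated at -0.3557, -0.5147 and -0.1146. No array held samples of both groups with the same number, so technical error alone can make these correlations negative. They cannot decide whether the numbers mark a pairing. Probes whose groups did not overlap numbered 940, but 578 with scaling between arrays, 2137 without the filter, 145 above background in all measurements, and 705 to 2136 with a sample or array left out. The 10 member probes apart became 2 with scaling between arrays, 6 with median centring, 6 of 28 above background in all measurements, and 6 with arrays of the lower slide range. As shares these were 3.08%, 9.23%, 21.4% and 9.38%, beside 7.43%, 10.5%, 8.75% and 8.6% of all kept probes. They became 5 to 26 with a sample or array left out, or 7.69% beside 10.2% of all without the array of control samples 3 and 1, and 40% beside 25.7% without control sample 2. The 29 probes that differed among menopausal samples became 14 with global loess, 64 with median centring, 0 with scaling or without background subtraction, 12 with plain subtraction, 19 with the spot mean, 13 without the filter, 85 with array weights, 1 with the lower slide range and 0 to 21 left out. The 83 among control samples became 35 without background subtraction, 46 without the filter, 156 above background in all measurements, 180 with array weights, 38 with the lower slide range and 0 to 107 left out. Of the named differences under the alternatives 604 kept their sign and 21 turned sign. None passed the test in any of them, so the side of the threshold did not vary. Filter and slide range settings mostly return the main difference, so many of the 604 could not have turned. With global loess Abcc1 was 0.0445 and Gstm4 -0.0429. With median centring Abcc1 was 0.0534, Gstm4 -0.0613 and Gclc probe 13322 0.0741. Gstm4 was -0.0102 with plain subtraction, and Akr1a1 probe 11728 was -0.00263 without background subtraction and -0.00805 with the spot mean, but 0.217 with global loess and 0.363 with median centring. With a sample or array left out, Abcc1 ran between -0.134 and 0.00915, Akr1a1 probe 11728 between -0.192 and 0.272, Akr1c14 probe 10094 between -0.569 and 0.15, Gclc probe 13322 between -0.413 and 0.098 and Gstm4 between -0.0602 and 0.204. The causes were not tested. Low signal over background limits 19 member probes, which gave no value.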
